A study of Mus musculus with 7 samples.

Results

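The enzymes described here sit on the brush border, the apical membrane of small intestinal enterocytes, and split sugars, peptides and phosphate esters just before uptake. The set was defined by name and held 10 genes: the disaccharidases Sis, Lct, Mgam and Treh, the peptidases Anpep, Dpp4, Enpep, Mep1a and Mep1b, and the phosphatase Alpi. Probe sets of the array were taken where the platform annotation named a listed gene and no other. In this way 9 of the 10 genes were found, by 13 probe sets, among 18193 gene symbols with a probe set of their own. Sis, sucrase-isomaltase, was not among them and its expression is not analysed here.

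Expression was measured on Affymetrix arrays, 1 per mouse, as log2 values in which 1 unit is a doubling. The tissue was terminal ileum, taken at 8 weeks of age from male mice of strain C57BL6J. The control group, 3 mice, received no antibiotic. The penicillin group, 4 mice, received low-dose penicillin at 6.7 mg/L beginning at birth. Both groups were weaned at 4 weeks onto normal chow, and at 6 weeks both were moved to diet D12451, a high fat diet with 45% of energy from fat, so that every comparison was made on that diet. The study asks how early low-dose penicillin alters transcription in the ileum, and the labels call the mice of a group biological replicates. Litter and cage were not given in the sources used here, and a litter or cage effect cannot be told apart from penicillin. The labels' growth text speaks of livers, while the source label names ileum. Fabp6, the bile acid binding protein of ileal enterocytes, lay between log2 14.28 and 14.64 on the 7 arrays, near the top of the scale.

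Brush border enzymes are anchored in the microvillus membrane and are made by the mature enterocytes of the villus, much less by the dividing cells of the crypt. Their amounts differ along the gut: lactase is highest in the jejunum and declines after weaning, when sucrase-isomaltase and trehalase come up. Transcription of these genes is classically tied to the factors HNF1, CDX2 and GATA, whose sites lie close to the start of several of them. Because whole ileum was used, fewer enterocytes and less RNA per enterocyte cannot be told apart in any value below.

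For orientation, promoters from the RefSeq promoter table (GRCm38.p6) were read for 8 of the 9 measured members and for Sis, and Mep1b was left out. The 250 bases before the start are printed for Treh, Lct and Alpi, the members with the largest differences between the groups, and for Mgam, the member with the smallest. Each runs 5′ to 3′ on the gene's strand, and capitals mark matches on either strand to the CDX core (TTTAT or TTTAC), the GATA site (AGATAA or TGATAA) or an HNF1 half-site (GTTAAT). A CDX core and a GATA site can overlap, as in the letters TTTATCT, and the CDX core is also part of many TATA boxes.
The Treh window lies at chr9:44672983-44673232 on the plus strand, and that of Lct at chr1:128328319-128328568 on the minus strand. The Alpi window lies at chr1:87101607-87101856 on the minus strand, and that of Mgam at chr6:40628581-40628830 on the plus strand.
Treh: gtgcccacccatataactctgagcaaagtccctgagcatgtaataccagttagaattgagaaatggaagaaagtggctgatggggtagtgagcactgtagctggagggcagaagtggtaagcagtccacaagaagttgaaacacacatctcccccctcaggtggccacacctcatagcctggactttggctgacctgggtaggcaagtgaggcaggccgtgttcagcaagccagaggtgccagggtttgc
Lct: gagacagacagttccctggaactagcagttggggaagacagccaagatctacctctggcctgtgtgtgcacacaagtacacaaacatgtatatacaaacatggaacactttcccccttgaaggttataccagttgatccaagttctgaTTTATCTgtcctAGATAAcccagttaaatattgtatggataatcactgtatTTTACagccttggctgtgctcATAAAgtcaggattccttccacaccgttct
Alpi: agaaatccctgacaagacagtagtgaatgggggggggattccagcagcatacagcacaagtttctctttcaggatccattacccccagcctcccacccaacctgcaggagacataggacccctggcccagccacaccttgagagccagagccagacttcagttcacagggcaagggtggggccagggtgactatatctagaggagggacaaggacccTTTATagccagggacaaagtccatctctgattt
Mgam: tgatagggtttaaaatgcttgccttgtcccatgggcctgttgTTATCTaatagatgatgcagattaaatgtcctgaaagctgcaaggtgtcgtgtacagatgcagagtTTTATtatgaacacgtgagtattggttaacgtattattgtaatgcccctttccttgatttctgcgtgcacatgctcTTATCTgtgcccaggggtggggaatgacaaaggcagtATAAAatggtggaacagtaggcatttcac

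The CDX core was found in 51.2% of the 32851 promoters of the table, read over the same 250 bases, and in 5 of the 8 measured members with a window, Lct, Mgam, Dpp4, Enpep and Alpi. The GATA site was found in 16.6% of promoters and in 4 of these 8, namely Lct, Mgam, Dpp4 and Mep1a. The HNF1 half-site was found in 6.43% of promoters and in none of these 8, and the full palindrome, GTTAAT and ATTAAC with 1 base between them, in 0.00913% of promoters and in none of the 8. Treh and Anpep had no match to any of these letters in the window. A match is a description of the letters and not a site shown to be bound. Of the windows printed, that of Treh held no match and those of Lct, Alpi and Mgam held the CDX core. A relation between matches and the size of the difference was not tested.

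Before the enzymes are compared, 1 array needs to be named. In the third control mouse, called control replicate 3, all 9 members had their lowest value of the 7 arrays, and so did all 13 probe sets, where 21.6% of all genes tested were lowest on that array. Its members lay below the mean of the other 6 arrays by 0.34 (Enpep) to 2.11 (Treh) on the log2 scale, or 1.26-fold to 4.33-fold. Of the 9 members 4, Treh, Alpi, Anpep and Dpp4, lay at least 2-fold below that mean, where 0.762% of all genes did. The same array stood apart over all genes, with a first principal component of -29.98 against -2.90 to 17.61 elsewhere. The colon marker list (8 genes, all with a probe set, 5 of them tested) had a summed level of log2 14.9 there, against 13.75 and 13.76 in the other control mice and 13.48 to 13.77 in penicillin mice. Of the 5 tested, 2 had their peak in this mouse: Car1, the colonic carbonic anhydrase, at 14.1 against 5.11 to 10.82, and Aqp8, a colonic water channel, at 8.27 against 3.86 to 4.29. The other three lay within the range of the other arrays, Slc26a3, a chloride exchanger, at 11.47 against 11.13 to 11.57, the mucin gene Muc2 at 13.24 against 13.09 to 13.45, and B3gnt7 at 5.67 against 5.43 to 5.89. The position genes Hoxb13, Hoxd10 and Hoxd13 lay between 3.08 and 4.74 on the 7 arrays, with means under the filter level. The part of gut position in the low enzyme values of this mouse was not tested, and the members' differences are given with and without it.

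**Figure D1:**
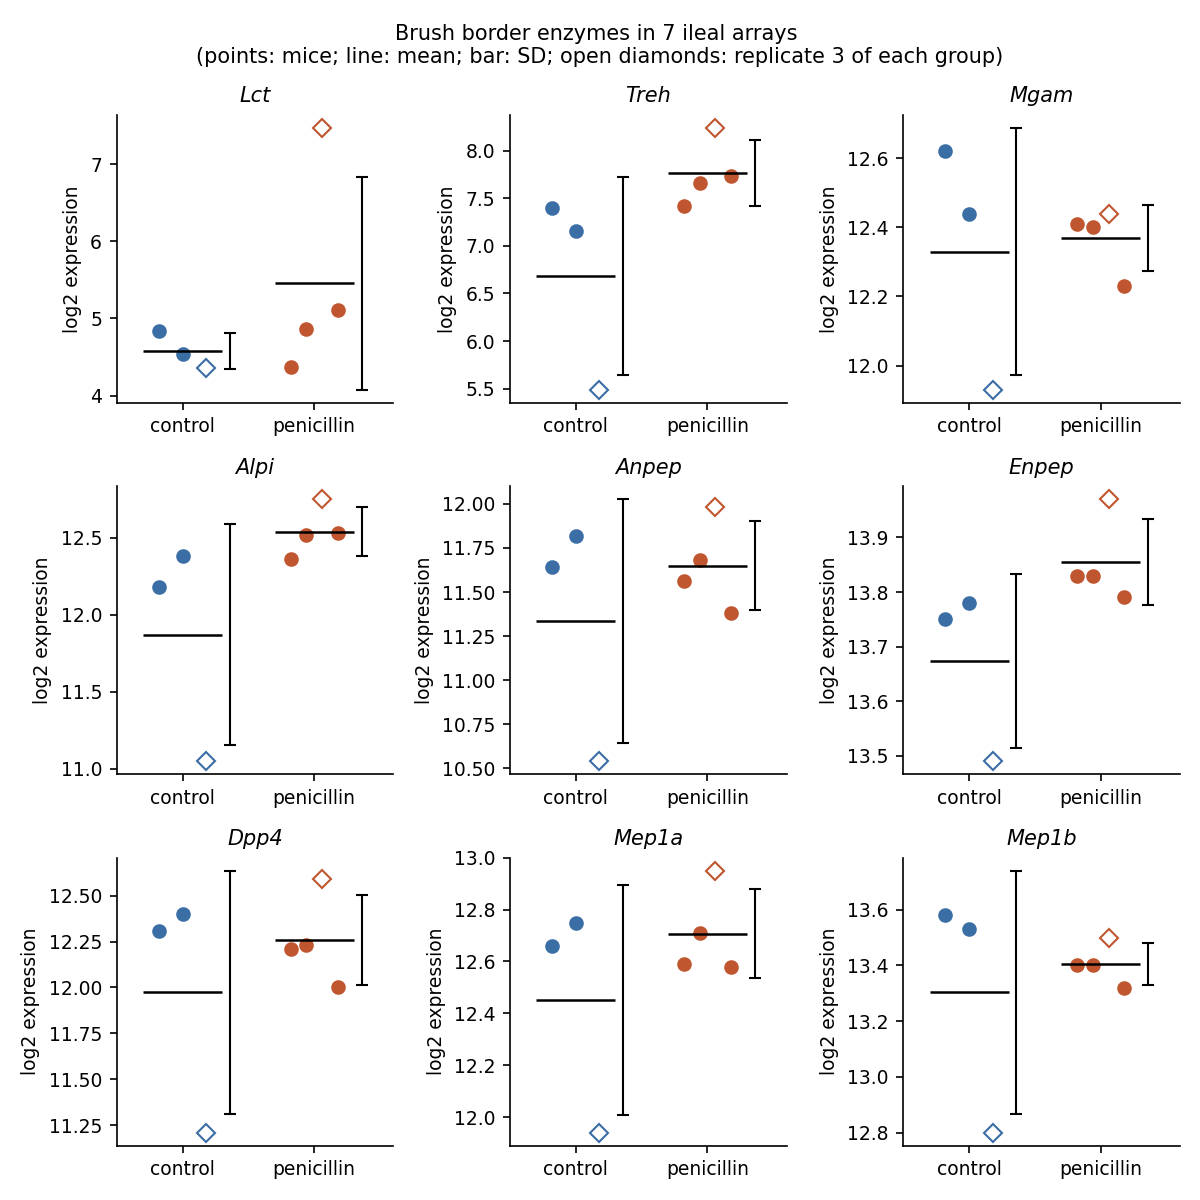
Log2 expression of the 9 measured brush border genes in 3 control and 4 penicillin mice, each panel on its own scale; points are mice, lines are group means, bars are 1 SD and open diamonds mark replicate 3 of each group. The open control diamond is the lowest of its panel for every gene, and the open penicillin diamond is the highest of the 7 for all but Mgam and Mep1b.

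Set against penicillin, no member passed the test. By limma on the log2 values, with Benjamini-Hochberg adjustment over 13644 genes, 0 of 9 members had an adjusted p under 0.05, and 1, Treh, had an unadjusted p under 0.05. Over all genes 13 passed (0.0953%), 12 of them lower and 1 higher (0.00733%). With control replicate 3 left out 0 of 9 members passed, where 0.0586% of all genes did. With array quality weights 0 of 9 passed, where 5.67% did, and 6 of 9 were higher, where 45.6% were. The mean was higher in penicillin mice for 9 of 9 members, where 45.3% of all genes tested were higher, with a median difference of 0.28 against -0.014 over all genes. Leaving out control replicate 3 gave 5 of 9 higher, where 48.3% of all genes were, and a median difference of 0.0029. Leaving out replicate 3 of both groups gave 4 of 9, where 49.6% of all genes were higher. Differences are penicillin minus control on the log2 scale, each followed by its standard error (SE).

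Among the disaccharidases, Treh, the trehalase that splits the sugar trehalose into glucose, showed the largest difference. Its values were 7.40, 7.16 and 5.49 in the control mice and 7.42, 7.66, 8.24 and 7.73 in the penicillin mice. The groups did not overlap, but penicillin replicate 1 lay just above control replicate 1, and most of the distance came from the third control mouse. The difference was 1.08 ± 0.44 (SE, 2.12-fold, adjusted p = 0.451), with a 95% interval of 0.057 to 2.11. With that mouse left out it was 0.49 ± 0.21 (SE, 1.40-fold, adjusted p = 0.480). Across the 9 members the groups did not overlap for 2, Treh and Enpep, both with penicillin higher, where 4.29% of all genes lay that way and 10.3% did not overlap in either direction.

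Lct, the lactase that splits milk sugar, stood low in this adult ileum except in 1 mouse. Control values were 4.83, 4.54 and 4.36, and penicillin values 4.37, 4.86, 7.47 and 5.11. Penicillin replicate 3 stood apart, and the other 6 mice lay between 4.36 and 5.11, around the level of log2 4.588 below which genes were left out as too weak. The groups overlapped. The difference of 0.88 ± 0.67 (SE, adjusted p = 0.614) became 0.20 ± 0.21 (SE, adjusted p = 0.816) without that mouse, and 0.77 ± 0.80 (SE, adjusted p = 0.764) without control replicate 3. Mgam, maltase-glucoamylase, which frees glucose from starch fragments, had its lowest value in control replicate 3. It stood at 12.62, 12.44 and 11.93 in control mice and 12.41, 12.40, 12.44 and 12.23 in penicillin mice. The difference was 0.035 ± 0.15 (SE, adjusted p = 0.935), with a 95% interval of -0.32 to 0.39. Once control replicate 3 was left out it turned to -0.16 ± 0.083 (SE, adjusted p = 0.531).

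The aminopeptidases clip residues from the N-terminus of peptides. Anpep, aminopeptidase N, stood at 11.64, 11.82 and 10.54 in control mice and 11.56, 11.68, 11.98 and 11.38 in penicillin mice. The penicillin values lay around those of the first pair of control mice, and the difference of 0.32 ± 0.30 (SE, adjusted p = 0.684) turned to -0.082 ± 0.16 (SE, adjusted p = 0.886) without the third. Enpep, aminopeptidase A, which prefers acidic residues, had the tightest values, at 13.75, 13.78 and 13.49 in control mice and 13.83, 13.83, 13.97 and 13.79 in penicillin mice. Every penicillin mouse lay above every control mouse, with penicillin replicate 4 just above control replicate 2. The difference was 0.18 ± 0.085 (SE, adjusted p = 0.490), and 0.092 ± 0.065 (SE, adjusted p = 0.648) without control replicate 3.

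Dpp4, dipeptidyl peptidase 4, which removes dipeptides after proline and inactivates incretins, had 4 probe sets. The strongest stood at 12.31, 12.40 and 11.21 in control mice and 12.21, 12.23, 12.59 and 12 in penicillin mice. The groups overlapped, with a difference of 0.28 ± 0.29 (SE, adjusted p = 0.702). All 4 probe sets had control replicate 3 lowest and penicillin replicate 3 highest, and in a fit with each probe set on its own and no filter the other 3 differed by 0.31, 0.31 and 0.15. The strongest probe set turned to -0.10 ± 0.15 (SE, adjusted p = 0.840) without control replicate 3.

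The meprins are zinc endopeptidases, Mep1a coding for the alpha chain and Mep1b for the beta chain. Mep1a stood at 12.66, 12.75 and 11.94 in control mice and 12.59, 12.71, 12.95 and 12.58 in penicillin mice. Its difference was 0.26 ± 0.20 (SE, adjusted p = 0.614), and 0.0029 ± 0.11 (SE, adjusted p = 0.995) without control replicate 3. The second, weaker probe set of Mep1a stood at 10.34, 10.05 and 9.33 in control mice and between 10.33 and 10.63 in penicillin mice. It differed by 0.54 ± 0.21 (SE, unadjusted p = 0.0331, adjusted p = 0.520 by limma with every probe set fitted), larger than the first and with overlapping groups. In that fit the unadjusted p was 0.0356 for Treh and 0.0472 for Alpi. With control replicate 3 set aside, the control mean of this weaker probe set was 10.2, against 10.45 in penicillin mice. The fits that left out mice used the stronger probe set only. Mep1b stood at 13.58, 13.53 and 12.80 in control mice and 13.40, 13.40, 13.50 and 13.32 in penicillin mice. All 4 penicillin mice thus lay below the first pair of control mice and above the third. The difference of 0.10 ± 0.18 (SE, adjusted p = 0.830) turned to -0.15 ± 0.063 (SE, unadjusted p = 0.0480, adjusted p = 0.467) without control replicate 3.

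Alpi, an intestinal alkaline phosphatase known to remove phosphate from bacterial lipopolysaccharide, had the second smallest p in the fit with 1 probe set per gene. It stood at 12.18, 12.38 and 11.05 in control mice and 12.36, 12.52, 12.75 and 12.53 in penicillin mice. Penicillin replicate 1 lay just under control replicate 2, so the groups overlapped by that pair. The difference was 0.67 ± 0.29 (SE, 1.59-fold, adjusted p = 0.472), with a 95% interval of -0.013 to 1.36. It was 0.26 ± 0.11 (SE, adjusted p = 0.480) with the third control mouse left out. Without replicate 3 of both groups the differences were 0.33 for Treh, 0.19 for Alpi, 0.096 for Lct and 0.053 for Enpep. They were below 0 for Mgam, Anpep, Dpp4, Mep1b and the stronger probe set of Mep1a. None of these had an adjusted p under 0.05, the smallest being 0.340.

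**Figure D2:**
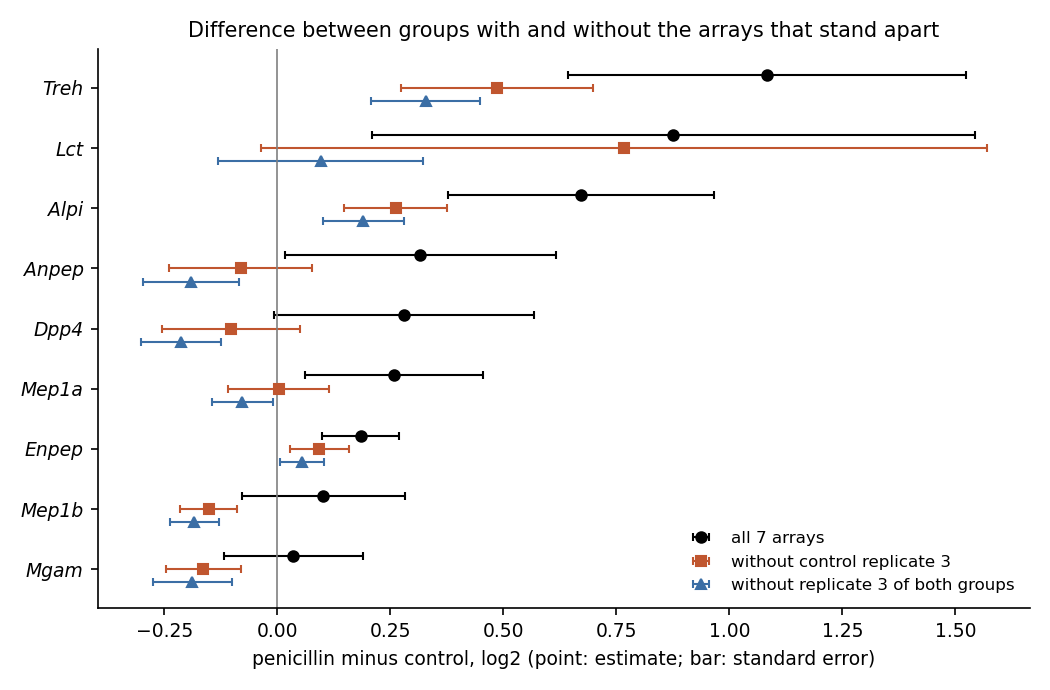
Penicillin minus control difference of each member on the log2 scale (points) with its standard error (bars), in limma on all 7 arrays, without control replicate 3, and without replicate 3 of both groups. Treh, Alpi, Lct and Enpep stay to the right of 0 in all 3 fits, while Mgam, Mep1b, Dpp4 and Anpep cross it once the third control mouse is left out.

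The spread between mice was also read in each group. The SD was larger in control than in penicillin mice for 8 of 9 members, where 64.4% of all genes tested had the larger SD in control mice, and Lct was the exception. The median SD over members was 0.44 in control and 0.17 in penicillin mice, against 0.11 and 0.084 over all genes. Treh had the widest control spread, an SD of 1.04 against 0.34 in penicillin mice. Lct had the widest penicillin spread, an SD of 1.38 against 0.24 in control mice. With control replicate 3 left out the control SD, then over 2 mice, was the larger for 1 of 9 members, where 42.3% of all genes had the larger SD in control mice. The difference in spread was not tested.

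The highest values also gathered in 1 mouse. Penicillin replicate 3 held the highest value of 7 members, where 15.8% of all genes were highest on that array. Control replicate 1 held that of the other two, Mgam and Mep1b. Over the members the mean deviation from the 7-array mean was 0.61 in penicillin replicate 3 and -0.84 in control replicate 3, and between -0.025 and 0.10 in the other 5 mice. Of the colon markers, Car1 was lowest in the same penicillin mouse, at 5.11, and Slc26a3 was highest there, at 11.57. Their part in the high enzyme values was not tested.

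Values of different members followed each other over the arrays. Over the 36 pairs of members, Pearson's r over 7 arrays had a median of 0.894 and lay between 0.241 and 0.996, with 17 pairs above 0.9, and the median of Spearman's rho was 0.554. These are descriptions over arrays that share each mouse's tissue. Anpep and Dpp4 were the closest pair (r = 0.996, and 0.978 without control replicate 3), and Lct and Mgam the least alike. Over the 6 arrays without control replicate 3 the median r was 0.603 and 7 pairs lay below 0. Without replicate 3 of both groups it was -0.169 with 21 pairs below 0, so the shared course of the 9 members rests on those 2 mice. In the 6 arrays without control replicate 3, Anpep, Dpp4 and Mep1a had r from 0.899 to 0.978 with each other. Treh, Alpi, Enpep and Lct had r from 0.793 to 0.905. Of these, Lct stood at 7.47 in penicillin replicate 3 and at 4.37 to 5.11 in the rest of those arrays. The genes were grouped after their values were seen. Mgam and Mep1b were alike (r = 0.896) but ran against Alpi, at -0.539 and -0.366.

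**Figure D3:**
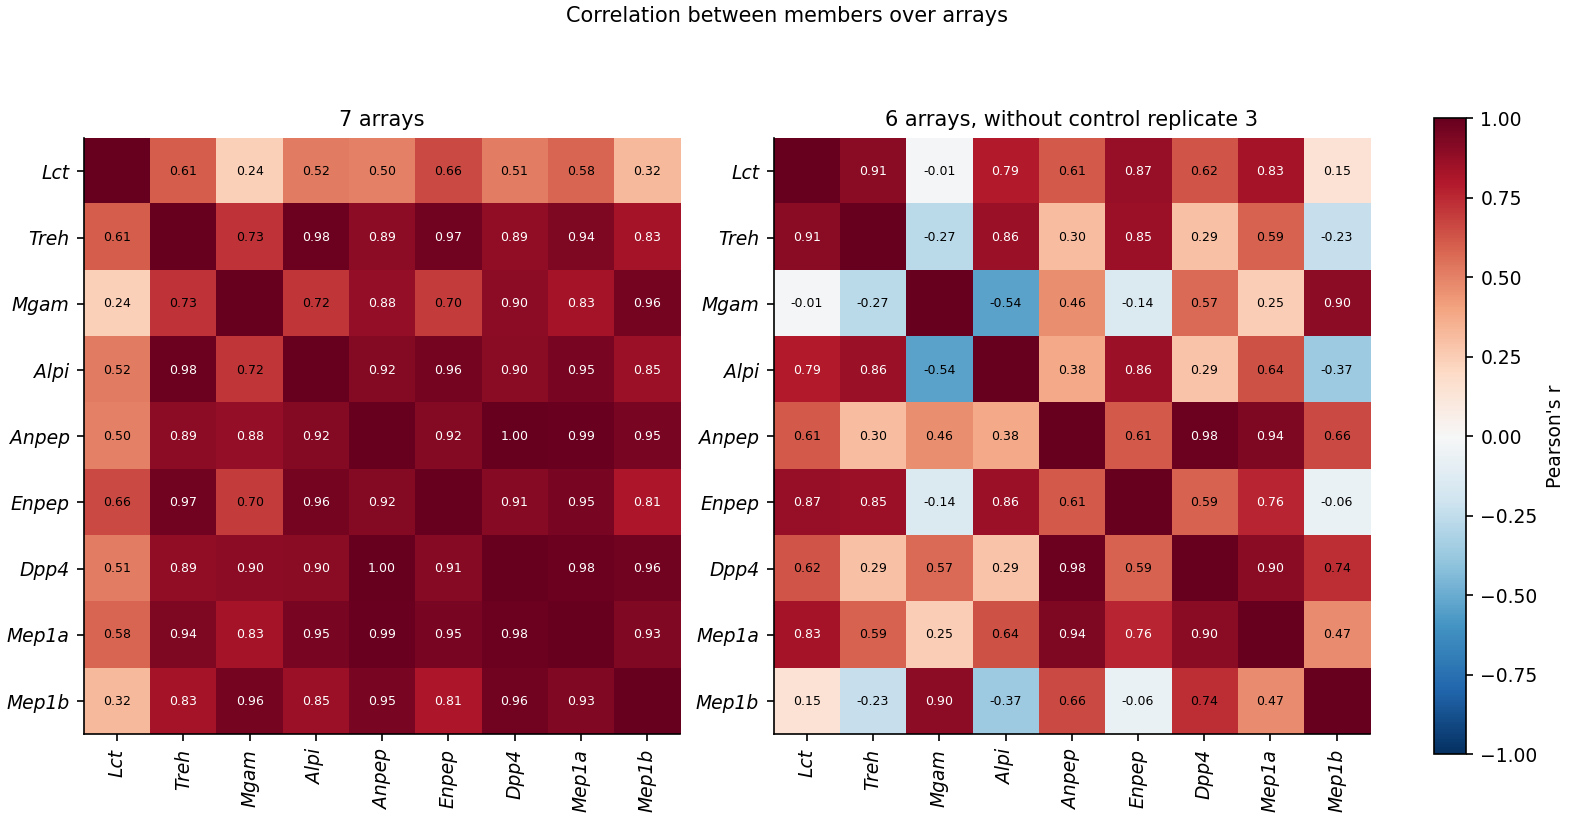
Pearson's r between the 9 members over 7 arrays (left) and over 6 arrays without control replicate 3 (right), from -1 in blue to 1 in red. On the left no pair is below 0, and on the right 7 of 36 pairs are, each of them Mgam or Mep1b against Lct, Treh, Enpep or Alpi.

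Genes outside the set whose mean course was most like that of the members over 7 arrays were Rnasek, a ribonuclease, Acaa1a, a peroxisomal thiolase, Nova2, Ttc9 and Slc5a11, a sodium-coupled inositol carrier, with Pearson's r from 0.995 to 0.998. Of these 5, Slc5a11 varied most, at 6.19 in control replicate 3 and 7.09 to 7.89 elsewhere, and Nova2 and Ttc9 lay near the filter level. Over deviations from the group means the 5 most alike were Iyd, Pdlim5, Slc5a11, Atp7b, a copper pump, and Rnasek, with r from 0.997 to 0.999. An r above 0.9 with the members' mean was found for 589 genes (4.32%) over 7 arrays and for 276 (2.02%) without control replicate 3. Without that array not every member followed the others. The r with the mean of the other members was then 0.0478 for Mgam, 0.223 for Mep1b and 0.702 to 0.915 for the rest. Over those 6 arrays the 5 most alike were Cyp4v3, Camk4, Vps33b, Ggt6 and Glce, none of them among those named above. By limma the genes named for likeness over 7 arrays or over deviations had adjusted p-values of 0.420 to 0.624.

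The other lists were read for how many of their genes passed in each direction, and 0 passed in either direction in every list named here. Of 15 other brush border hydrolases 12 had a probe set and 10 were tested, and all 10 had the higher mean in penicillin mice, with a median difference of 0.27. Mme, neprilysin, stood at 9.25, 9.13 and 7.79 in control mice and 9.43, 9.94, 10.27 and 9.95 in penicillin mice. Those groups did not overlap, and the difference was 1.17 ± 0.36 (SE, 2.25-fold, adjusted p = 0.353), and 0.71 ± 0.21 (SE, adjusted p = 0.300) without control replicate 3. Dpep1, a dipeptidase, differed by 0.44 ± 0.21 (SE), and by 0.16 without that mouse. Akp3, another intestinal alkaline phosphatase, differed by 0.14 ± 0.070 (SE) and by 0.15 without it, at 4.70 to 5.06 just above the filter level. With control replicate 3 left out the list had 7 of 10 genes higher and a median difference of 0.085.

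Genes of the microvillus scaffold were read beside the enzymes they carry. All 12 were tested, all 12 were lowest in control replicate 3, and all 12 had the higher mean in penicillin mice, with a median difference of 0.18. Ezr, ezrin, which ties the membrane to actin, differed by 0.36 ± 0.13 (SE, adjusted p = 0.410), Pdzk1, a scaffold of transporters, by 0.66 ± 0.38 and Pls1, an actin bundler, by 0.24 ± 0.15 (SE). With that array left out these were 0.21 for Ezr, 0.13 for Pdzk1 and 0.036 for Pls1, and 3 of 12 genes were higher, with a median of -0.042. With the mean of this list as a covariate, Treh differed by 0.55 ± 0.15 (SE, adjusted p = 0.234) and Alpi by 0.30 ± 0.046 (SE, unadjusted p = 3.8e-04, adjusted p = 0.0810). In that fit 5 of 9 members were higher, where 48% of all genes were, and 0 passed, where 0.293% of all genes did. Mgam, Anpep, Dpp4 and Mep1b were below 0.

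Carriers that take up the products followed the enzymes. All 9 were tested and 8 were higher in penicillin mice, with a median difference of 0.45, and 0.10 with 5 of 9 higher without control replicate 3. Slc6a20a, a carrier of proline and other imino acids, stood at 11.43, 11.20 and 10.74 in control mice and 11.67, 11.76, 11.94 and 11.60 in penicillin mice. Those groups did not overlap, and the difference was 0.62 ± 0.16 (SE, adjusted p = 0.290), and 0.43 ± 0.11 (SE, adjusted p = 0.248) without control replicate 3. Slc15a1, the peptide carrier, and Slc6a19, the main carrier of neutral amino acids, differed by 0.79 ± 0.35 and 0.77 ± 0.42 (SE), and by 0.34 and 0.18 without control replicate 3.

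Transcription factors known to act on brush border genes were the next list. Of 12 listed 10 were tested, 8 were higher in penicillin mice and the median difference was 0.092, and 3 were lowest in control replicate 3, where the list's mean deviation was -0.22. Hnf4g stood at 10.04, 9.50 and 9.73 in control mice and 10.10, 10.04, 10.26 and 10.15 in penicillin mice, and differed by 0.38 ± 0.12 (SE, adjusted p = 0.385). Its lowest value was in control replicate 2, not 3. Gata6 and Cdx2 differed by 0.13 ± 0.076 and 0.098 ± 0.058 (SE). With control replicate 3 left out 8 of 10 were still higher, with a median of 0.071, and Hnf4g, Gata6 and Cdx2 differed by 0.37, 0.10 and 0.096. In control replicate 3 Cdx2 was at 11.46 against 11.40 to 11.64 elsewhere and Hnf4a at 12.39 against 12.38 to 12.53, so both lay within the range of the other mice. Of 4 genes that differ between suckling and adult gut 3 were tested. Arg2, an arginase of adult enterocytes, differed by 0.52 ± 0.23 (SE), Fcgrt, the neonatal Fc receptor, by -0.24 ± 0.090 (SE), and Prdm1, which holds the suckling programme, by -0.26 ± 0.22 (SE). With control replicate 3 left out these were 0.31, -0.30 and -0.41.

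**Figure D4:**
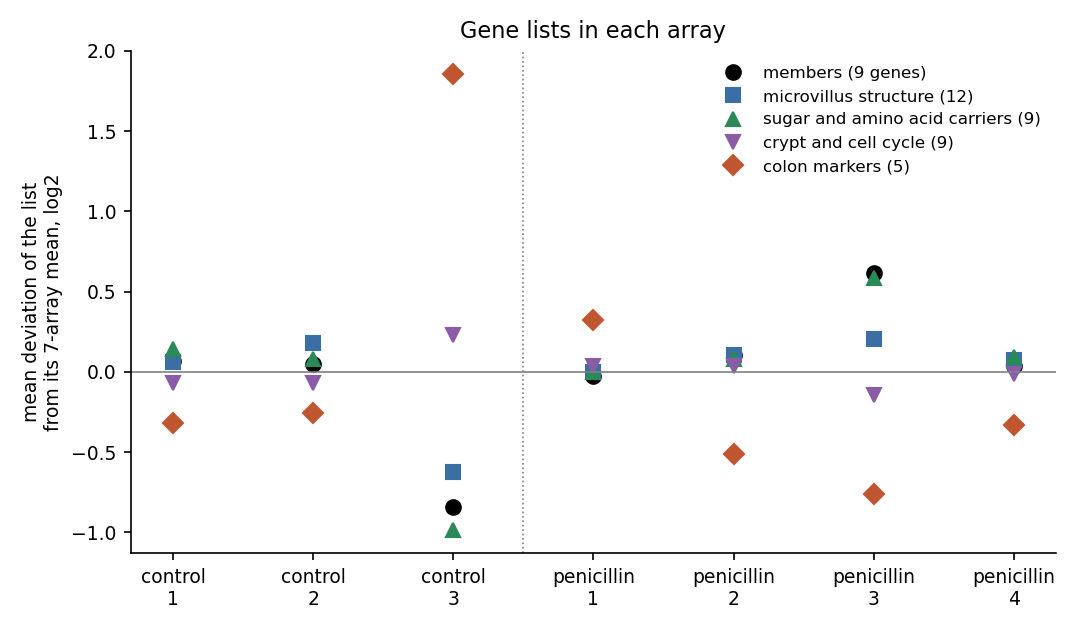
Mean deviation of 5 gene lists from their 7-array means (log2) in each of 3 control and 4 penicillin mice. The members, the microvillus list and the carriers are lowest in control replicate 3, where the crypt list and, through Car1 and Aqp8, the colon list are highest. The members and carriers are highest in penicillin replicate 3, and so is the microvillus list, at 0.20 against 0.18 in control replicate 2.

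Markers of other cells were read beside the enzymes. The villus tip list (7 of 8 tested) was lowest in control replicate 3 for all 7 genes, with a median difference of 0.36, and 0.060 without that mouse; Apoa4, an apolipoprotein, differed by 0.90 ± 0.42 (SE), and by 0.66 without it. The crypt and cell cycle list (9 of 10 tested) was highest in control replicate 3 for 7 genes, with summed levels of 13.82 to 14.13 in control and 13.77 to 13.94 in penicillin mice. Ascl2, a stem cell factor of that list, was higher in penicillin mice by 0.28 ± 0.082 (SE, adjusted p = 0.333). The adipocyte list (4 of 5 with a probe set) had summed levels of 11.96 to 13.34 in control and 11.63 to 12.51 in penicillin mice, highest in control replicate 3 for all 4 genes, with Adipoq at 12.81 there and 11.07 to 11.78 elsewhere. The stroma list (6 of 6) lay at 13.40 to 13.89 and 13.00 to 13.76, and smooth muscle (7 of 7) at 14.73 to 14.93 and 14.43 to 14.86. Of the stroma genes 2 of 6 were higher in penicillin mice, and 6 of 6 without control replicate 3. Smooth muscle was lower in penicillin mice for all 7 genes with and without that mouse, at a median of -0.15 and -0.21. The goblet list (7 of 7) lay at 16.35 to 16.44 and 16.35 to 16.48. Control replicate 3 was at 16.35, with 3 of its 7 genes lowest there. Exocrine pancreas genes (4 of 5 with a probe set) lay at 6.47 to 6.59 and 6.54 to 6.61, with Cpa1 and Cpb1 under the filter. The leukocyte list (8 of 9 tested) was lower in penicillin mice for all 8 genes with and without control replicate 3, at a median of -0.32 and -0.28. Its summed level was 12.76 to 13.04 in control and 12.47 to 12.68 in penicillin mice, and Cd3g, a chain of the T cell receptor complex, differed by -1.29 ± 0.22 (SE, adjusted p = 0.108). The terminal ileum list (5 of 5) had 4 genes lowest in control replicate 3, and Slc10a2, the bile acid carrier, differed by 0.82 ± 0.23 (SE, adjusted p = 0.308), and by 0.51 without that mouse. Fgf15, the hormone that bile acids induce in the ileum, was lower by value in penicillin mice, at -1.14 ± 0.57 (SE, adjusted p = 0.508), and at -1.71 ± 0.50 (SE, adjusted p = 0.297) without that mouse. The proximal list (6 of 6) had 2 genes lowest there, with a median difference of 0.22, and 0.13 without that mouse. Slc40a1, the iron exporter, ran the other way, at -0.57 ± 0.14 (SE, adjusted p = 0.265) with groups that did not overlap, and at -0.64 without that mouse. The part of any of these lists in the enzyme values was not tested.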

How the data were processed

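What the authors deposited is a log2 value for each probe set, made by the authors with RMA (affy is also named), as the submitters' processing notes list them. RMA corrects background, equalises the distributions of the arrays and summarises probes. For tool versions and genome build, the sources used here give nothing. RMA gives no detection call, and the number of arrays limits the precision. The table held 45101 probe sets on 7 arrays, from 2.50 to 14.7, with array medians of 5.43 to 5.45.

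Probe sets were named from GEO's annotation of the platform, which can be old. Probe sets naming 1 gene (34945) were kept, 34741 of them matched to RefSeq by gene ID, and 932 naming several genes were left out. A gene was its probe set with the highest mean. Genes at or under the 25th percentile of the means (log2 4.588) were left out, which left 13644 genes and all 9 members. The test was limma 3.58.1 (R 4.3.3): lmFit and eBayes, two-sided, called at an adjusted p under 0.05. The fit was tested on simulated data with known changes. Those values were drawn for each gene on its own, so they held no array that stands apart as control replicate 3 does. The members and lists were chosen with earlier results of these data known. The genes named are the members, Fabp6, of each list any gene called and up to 3 by the largest absolute moderated statistic, and the 5 genes most like the members' mean over 7 arrays and over deviations from group means. Car1, Slc26a3, the Hox genes, Hnf4a, Cpa1, Cpb1 and the 5 genes most alike over 6 arrays were chosen after their values were seen. Alternatives changed normalisation, filter, probe set rule, prior, array weights, block, threshold and covariate, and left out each array. Figures used matplotlib 3.10.9 in Python 3.11.15.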

Additional observations from a re-analysis of the deposited data

Results flagged for a closer look

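Of 30 values tested among the 4 penicillin mice, being the members' probe sets and the list means, 2 had 1 mouse far from the others, past Dixon's 95% critical value for 4 samples. Chance alone passes it in about 1 of 20 groups. The mean of the list of carriers that take up the products (ratio 0.844) was 0.59 in penicillin replicate 3 and 0.0018 to 0.093 in the others. The mean of the terminal ileum list (ratio 0.859) was 0.34 in penicillin replicate 4 and -0.14 to -0.071 in the others. None of the members' 13 probe sets passed it, the nearest being a weaker probe set of Dpp4 (0.826) with penicillin replicate 3 high.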

How the results depend on the processing

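No member had an adjusted p under 0.05 in limma under any alternative run, nor under 0.1 in the fit the report uses, while Alpi was at 0.0810 with the microvillus covariate. With the filter at the 50th percentile Lct could not be tested. The median difference over members lay between -0.078 (replicate 3 of both groups left out, an alternative added after seeing the data) and 0.49, and leaving out single mice gave 0.0029 to 0.49. It was 0.059 with array quality weights and 0.021 with the covariate. The number of members with a higher mean was 9 in the report, 5 without control replicate 3 (5 to 9 over single mice left out), 6 with array quality weights, 5 with the microvillus mean as a covariate and 4 without replicate 3 of both groups. Direction turned for Mgam (-0.21 with array quality weights, -0.13 with the covariate, -0.16 to 0.18 over single mice left out, -0.19 without replicate 3 of both groups), Mep1b (-0.14, -0.11, -0.15 to 0.24 and -0.18), Dpp4 (-0.043, -0.065, -0.10 to 0.49 and -0.21), Anpep (-0.047 with the covariate, -0.082 to 0.56, and -0.19) and Mep1a (-0.078 without replicate 3 of both groups). For Mep1a this was its stronger probe set, and the weaker was not fitted without those mice. The cause of the turns was not tested. Treh, Alpi, Lct and Enpep kept their direction in every alternative. The count of members with the larger control SD went from 8 to 1 without control replicate 3, and the median r between members from 0.894 to 0.603, and to -0.169 without replicate 3 of both groups. Genes called over all genes numbered 13, 7 with probe sets averaged, 774 with array quality weights (where 0 members passed), 40 with the covariate, 40 at an adjusted p under 0.1, 2 without replicate 3 of both groups, and 0 to 15 over single mice left out. Replicate numbers are shared by the groups, and the labels do not say whether they pair mice. Deviations from the group means had r = -0.164, 0.00297 and -0.416 between same-numbered mice. Between differently numbered mice r lay from -0.367 to 0.375. So few pairs cannot decide whether the numbers pair mice. With the number as a replicate block 0 genes were called, 803 had an unadjusted p under 0.05, and the median member difference was 0.37.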
